A study of Mus musculus with 74 samples.

Results

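The genes described here are 36 genes of the endoplasmic reticulum (ER) stress response and of the transcription factor ATF4, out of 49480 gene rows in the deposited count table. They were listed by gene symbol, with no threshold on a measured value, and all 36 were found in the table. The list was drawn up with earlier results of these data known. Shares of members set beside those of all genes are therefore description only. They fall into 5 arms. The ER folding arm holds 14 genes of the ER chaperones, disulfide isomerases and their partners (Hspa5, Hsp90b1, Calr, Canx, Pdia3, Pdia4, Pdia6, P4hb, Dnajb9, Dnajb11, Dnajc3, Sdf2l1, Manf and Creld2). The ERAD arm, for ER-associated degradation, holds 4 (Sel1l, Herpud1, Syvn1 and Edem1). The sensors and their transcription factors are 6 (Xbp1, Atf6, Ern1, Eif2ak3, Atf4 and Ddit3), the ATF4 feedback genes are 4 (Trib3, Chac1, Sesn2 and Ppp1r15a), and the amino acid and one-carbon targets of ATF4 are 8 (Asns, Psat1, Phgdh, Shmt2, Mthfd2, Slc7a11, Slc7a5 and Slc3a2).

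When unfolded proteins gather in the ER, a set of sensors in its membrane is switched on. IRE1 (encoded by Ern1) splices the Xbp1 transcript, ATF6 is cut in the Golgi to release a transcription factor, and PERK (Eif2ak3) phosphorylates the initiation factor eIF2, which slows translation and favors that of ATF4. XBP1 and ATF6 chiefly raise chaperones and degradation genes, while ATF4 chiefly raises genes of amino acid uptake and synthesis. ATF4 is also raised through other eIF2 kinases, for example when amino acids are short, so its targets can move apart from the chaperones. In immune cells XBP1 is known for its part in plasma cells, dendritic cells and tumor-infiltrating myeloid and T cells.

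RNA was sequenced by Smart-seq2, a full-length method that does not mark strand, in 74 libraries, each made from 1000 cells sorted 2 times, from tumor and spleen of C57BL/6J mice aged 3 or 12 months. The labels give the same treatment for every library, MC38 tumor cells (a mouse colon carcinoma line) under the skin, with collection on day 10. The sorted myeloid types were macrophages (CD45+CD11b+F4/80+) and dendritic cells (CD45+CD11b+CD11c+MHCII+). The T cell types were regulatory T cells (CD45+TCRb+CD4+CD25+), conventional CD4 T cells (CD45+TCRb+CD4+CD25-) and CD8 T cells (CD45+TCRb+CD8+). With 2 tissues and 2 ages this makes 20 groups, of 4 libraries each with some exceptions. There were 3 for dendritic cells in spleen at either age and in tumor at 12 months, 3 for conventional CD4 T cells in spleen at 3 months and 2 for those in tumor at 3 months. Replicate 1 of the dendritic cell groups came from male mice and all other libraries from female mice. No label says that the libraries of a group are separate animals, so p-values measure only the spread between these libraries.

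Total counts ran from 1652812 to 9115858 per library, with a median of 4679410. Markers of the sorted types are given here in CPM, the usual unit of counts scaled to a common library total. Cd3e was at 165 to 265 CPM in tumor CD8 T cells and Adgre1, which encodes F4/80, at 709.7 to 1103 CPM in tumor macrophages. The same gate held different mixtures in the 2 tissues. In macrophages, 8 neutrophil markers summed to 3523 to 28520 CPM in spleen and 28.4 to 734 CPM in tumor. There, 13 plasma cell markers summed to 1249 to 10640 and 124 to 228 CPM and 9 macrophage markers to 5365 to 8212 and 16760 to 40990 CPM. In dendritic cells, the plasma cell markers summed to 1698 to 10770 CPM in spleen and 61.98 to 174 CPM in tumor. Their 8 B cell markers summed to 501 to 3139 and 11.3 to 35.3 CPM and their macrophage markers to 488 to 824 and 3001 to 20230 CPM, with Vsig4 at 0 in every spleen library. Their 8 dendritic cell markers summed to 1619 to 2568 CPM in spleen and 531 to 2099 CPM in tumor. In tumor these sums thus lay below those of the macrophage markers. In conventional CD4 T cells, 3 regulatory T cell markers summed to 187 to 1170 CPM in spleen and 994 to 2484 CPM in tumor. Single libraries stood apart too: tumor dendritic cell replicate 2 of both ages had macrophage markers of 16050 and 20230 CPM, and 1 spleen conventional CD4 T cell library (3 months, replicate 4) had plasma cell markers of 7453 CPM. The part of these markers' cells in the results below was not tested. Fewer expressing cells and less RNA per cell cannot be told apart in such bulk libraries. For 2 spleen dendritic cell libraries (replicates 3 and 4) the title gives 3 months and the age tag 12 months, and the title was followed.

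The arms were also compared by the sequence of their promoters. Of the 36 genes, 33 had a promoter in the RefSeq table of build GRCm38.p6, and the 250 bases before each annotated start were searched on both strands for 3 motifs. The ER stress response element, CCAAT and CCACG with 9 bases between them, was found in 7 of 13 ER folding genes (Hspa5, Hsp90b1, Calr, Canx, Pdia6, Dnajc3 and Creld2) and in Syvn1, against 35 of 27025 promoters in the whole table, or 0.13%. Its short variant, ATTGG and CCACG with 1 base between them, was found in Herpud1, against 10 of 27025 promoters, or 0.037%. The motif TGATGNAA, known as the binding site of C/EBP and ATF4 dimers, was found in Herpud1, Chac1, Asns and Slc7a11, which is 12.1% of the 33 genes, against 1056 of 27025 promoters, or 3.91%. By arm this was 1 of 4 ERAD, 1 of 4 feedback and 2 of 7 amino acid genes, so it did not set the ATF4 arms apart from ERAD. None of these matches overlapped another. A match is a string of letters and was not tested for binding here, and no match says only that those letters are not in this window.

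Shown are windows that hold a match, of genes whose values are given below. No match was found for P4hb, Edem1, Eif2ak3, Shmt2 and Slc3a2, on which results also turn, and of the 11 genes of the ATF4 arms with a promoter 3 held the ATF4 motif. The windows of Slc3a2, Mthfd2 and Psat1 lie far from the gene's start in the GENCODE annotation, which for Slc3a2 is at -9472 bases from its RefSeq start. Windows are given 5′ to 3′ on the strand of the gene, ending at the base before the RefSeq start, with the motif in capitals, in its own direction or as its reverse complement. Hspa5 (chr2:34771840-34772089, plus strand), Hsp90b1 (chr10:86705445-86705694, minus strand), Calr (chr8:84846932-84847181, minus strand) and Herpud1 (chr8:94386179-94386428, plus strand) stand for the chaperone and degradation arms. Chac1 (chr2:119350992-119351241, plus strand), Asns (chr6:7693210-7693459, minus strand) and Slc7a11 (chr3:50443614-50443863, minus strand) stand for the ATF4 arms.
Hspa5: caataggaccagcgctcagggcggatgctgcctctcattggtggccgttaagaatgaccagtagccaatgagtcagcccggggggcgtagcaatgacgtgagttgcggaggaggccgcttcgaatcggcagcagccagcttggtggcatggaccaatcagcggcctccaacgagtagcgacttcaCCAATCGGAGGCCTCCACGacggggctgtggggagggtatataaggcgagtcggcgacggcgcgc
Hsp90b1: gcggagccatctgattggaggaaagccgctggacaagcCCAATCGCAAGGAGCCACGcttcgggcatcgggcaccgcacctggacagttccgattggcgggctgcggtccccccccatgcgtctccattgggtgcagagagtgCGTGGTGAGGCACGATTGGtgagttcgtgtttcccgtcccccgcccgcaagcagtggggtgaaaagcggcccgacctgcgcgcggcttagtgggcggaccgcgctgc
Calr: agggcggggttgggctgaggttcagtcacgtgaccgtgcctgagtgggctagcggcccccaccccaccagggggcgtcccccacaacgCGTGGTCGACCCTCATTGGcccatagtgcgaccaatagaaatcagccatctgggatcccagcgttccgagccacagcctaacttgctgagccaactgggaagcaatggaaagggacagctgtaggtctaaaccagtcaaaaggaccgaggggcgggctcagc
Herpud1: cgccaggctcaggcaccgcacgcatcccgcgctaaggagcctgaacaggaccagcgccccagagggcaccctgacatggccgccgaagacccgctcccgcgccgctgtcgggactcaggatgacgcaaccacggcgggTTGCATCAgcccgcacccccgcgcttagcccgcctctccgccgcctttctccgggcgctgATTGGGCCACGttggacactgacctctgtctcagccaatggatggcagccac
Chac1: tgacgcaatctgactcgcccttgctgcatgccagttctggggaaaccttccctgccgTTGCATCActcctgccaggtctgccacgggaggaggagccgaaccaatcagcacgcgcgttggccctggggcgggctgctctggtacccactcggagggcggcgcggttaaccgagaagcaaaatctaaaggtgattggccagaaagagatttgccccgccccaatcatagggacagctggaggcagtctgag
Asns: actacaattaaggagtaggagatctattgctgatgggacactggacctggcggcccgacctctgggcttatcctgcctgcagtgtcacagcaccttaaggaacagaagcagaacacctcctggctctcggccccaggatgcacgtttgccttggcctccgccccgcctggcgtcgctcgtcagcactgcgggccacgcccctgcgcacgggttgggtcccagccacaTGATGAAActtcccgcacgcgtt
Slc7a11: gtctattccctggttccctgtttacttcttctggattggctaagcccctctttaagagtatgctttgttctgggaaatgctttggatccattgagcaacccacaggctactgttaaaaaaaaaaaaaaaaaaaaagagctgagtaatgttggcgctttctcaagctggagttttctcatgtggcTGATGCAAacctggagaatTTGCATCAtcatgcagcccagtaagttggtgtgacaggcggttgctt
Hsp90b1 held 2 copies of the ER stress response element, and Slc7a11 held 2 copies of TGATGCAA on opposite strands. Herpud1 alone among the 33 held both the short ER stress element and the ATF4 motif. The element of Hspa5 read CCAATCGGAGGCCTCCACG and began 65 bases before the start. That of Syvn1 read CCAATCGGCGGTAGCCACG and began 44 bases before it.

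The comparison of tumor with spleen asked which of these genes differ in immune cells that have entered the tumor. Of the 14 ER folding genes, 13 rose in tumor in macrophages, 14 in dendritic cells, 11 in regulatory T cells and 11 in CD8 T cells, and at least 4 of the 6 sensor and factor genes rose in each T cell type but none in macrophages. The ATF4 targets did not move as one group: Slc3a2, the heavy chain of amino acid transporters, rose in all 5 cell types, while Shmt2, a mitochondrial serine enzyme, fell in the 3 T cell types and Phgdh, the first enzyme of serine synthesis, fell in 3 types. Differences are log2 fold changes from edgeR's quasi-likelihood test over both ages, with library sizes scaled by the trimmed mean of M-values (TMM). Rose and fell are written of genes with a Benjamini-Hochberg adjusted p, over all genes tested, under 0.05.

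In macrophages 18 of 36 tested members rose and 7 fell, where 23.9% of all genes tested rose and 27.8% fell (51.7% together). In dendritic cells 25 of 36 rose and 5 fell, where 24.4% of all genes rose and 22.7% fell (47.1% together). Regulatory T cells had 18 of 34 members that rose and 3 that fell, where 25.9% rose and 27.6% fell (53.5% together). Conventional CD4 T cells had 9 of 35 members that rose and 3 that fell, where 16% rose and 11.2% fell (27.2% together). For CD8 T cells 23 of 35 rose and 2 fell, where 22.5% rose and 19.6% fell (42.1% together). Of the 5 types, conventional CD4 T cells had the share of risen members that stood nearest to that of all genes. Chac1 was not tested in T cells and Slc7a11 not in regulatory T cells, for too few reads.

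The scaling bears on these counts. When libraries were scaled by their totals alone, a setting chosen after seeing the data, the median log2 fold change over all genes was -0.28 in macrophages, -0.37 in dendritic cells and -0.29 in regulatory T cells, against -0.06, -0.04 and -0.05 with TMM. In conventional CD4 T cells it was -0.00048 against 0.04, and in CD8 T cells -0.10 against -0.01. On that scale 15 members rose and 8 fell in macrophages, 17 and 6 in dendritic cells, 14 and 7 in regulatory T cells, 6 and 4 in conventional CD4 T cells, and 23 and 3 in CD8 T cells. The levels in CPM given below are on the scale of totals, and the fold changes on that of TMM.

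**Figure D1:**
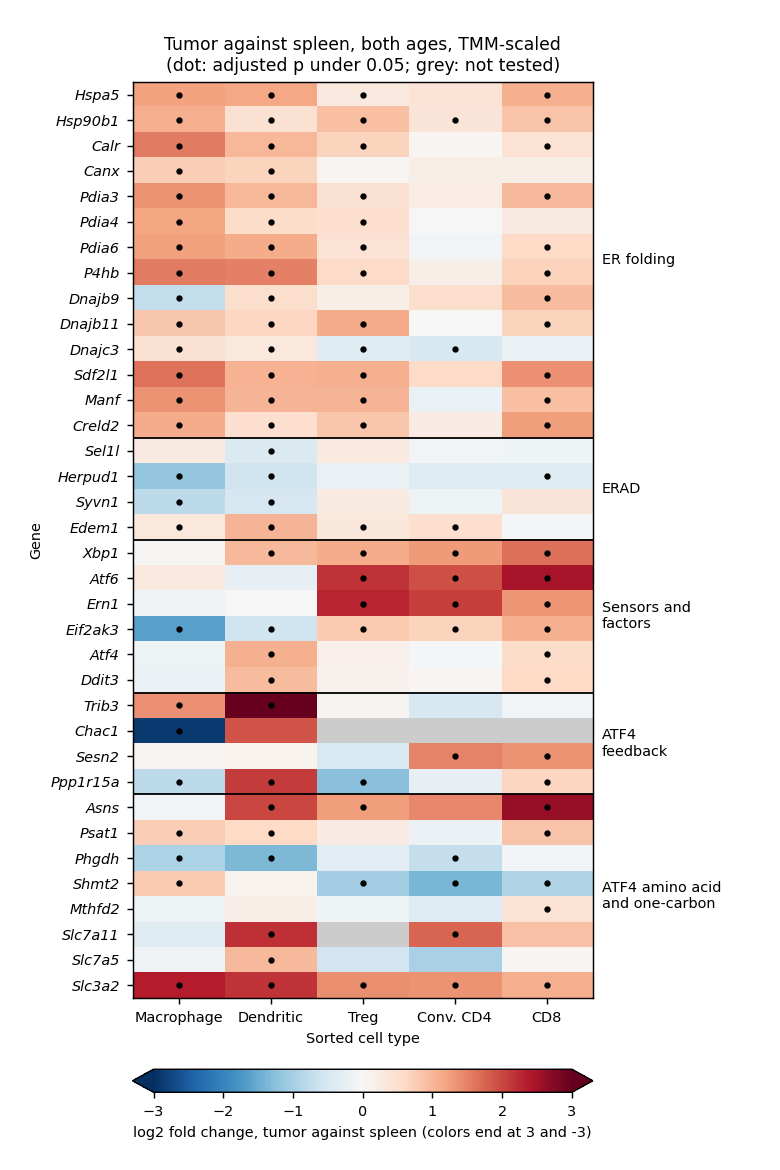
Log2 fold changes of tumor against spleen for the 36 genes (rows, by arm) in the 5 sorted cell types (columns), from red (higher in tumor) to blue (lower), with a dot where the adjusted p was under 0.05 and grey where a gene was not tested. The ER folding rows are dotted and red in dendritic cells for 14 of 14 genes and in conventional CD4 T cells for 1, and Slc3a2 in the last row is dotted in all 5 columns.

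In macrophages 13 of the 14 ER folding genes rose, with a median log2 fold change over the arm of 1.19 against -0.06 for all genes, and Dnajb9 (ERdj4, a co-chaperone) fell. All 14 rose in dendritic cells (median 0.83 against -0.04), but with libraries scaled by totals 8 did, and Dnajc3 then stood at -0.01. In regulatory T cells 11 rose and Dnajc3, the co-chaperone p58IPK, fell (median 0.54 against -0.05). CD8 T cells had 11 that rose and none that fell (median 0.76 against -0.01), while on totals 1 fell. In conventional CD4 T cells Hsp90b1 rose and Dnajc3 fell (median 0.17 against 0.04), and neither call held in every alternative tried. Dnajc3 there was lost without tumor 3-month replicate 3 (adjusted p = 0.0786).

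Hsp90b1 encodes GRP94, the HSP90 of the ER, which folds integrins and Toll-like receptors. Hsp90b1 in macrophages stood at 578, 557, 509.5 and 541 CPM at 3 months and 519, 437, 393 and 641 CPM at 12 months in spleen, against 1167, 1276, 896 and 660 CPM at 3 months and 881, 884, 999.8 and 869 CPM at 12 months in tumor. Hsp90b1 in CD8 T cells stood at 266, 297, 213 and 214 CPM at 3 months and 231, 284, 254 and 214 CPM at 12 months in spleen, against 463, 496, 401 and 314 CPM at 3 months and 415, 508, 422 and 332 CPM at 12 months in tumor. Every tumor library lay above every spleen library in both types, and in regulatory T cells as well. The log2 fold change was 1.08 (SE 0.12, adjusted p = 4.52e-07) in macrophages, 0.89 (SE 0.11, adjusted p = 4.75e-07) in regulatory T cells and 0.85 (SE 0.11, adjusted p = 7.07e-07) in CD8 T cells. In dendritic cells its values were 426, 439 and 437 CPM at 3 months and 498, 500.4 and 549.9 CPM at 12 months in spleen, against 489, 826, 471 and 497 CPM at 3 months and 432, 489.9 and 482 CPM at 12 months in tumor. These overlap, and the value of 0.45 (SE 0.13, adjusted p = 0.0108) with TMM became 0.12 (adjusted p = 0.464) on totals and 0.40 (adjusted p = 0.133) without the 2 spleen libraries of conflicting age labels. Hsp90b1 values overlapped in conventional CD4 T cells too, at 257, 227 and 260.2 CPM at 3 months and 262, 223, 287 and 262 CPM at 12 months in spleen, against 375 and 297 CPM at 3 months and 299.5, 344, 315 and 278 CPM at 12 months in tumor. The log2 fold change there was 0.39 (SE 0.13, adjusted p = 0.0338), and the adjusted p was 0.143 with no filter on low counts, 0.0512 on totals and 0.0693 with the replicate number as a block. Left out one at a time, spleen 12-month replicates 1, 2 and 4, spleen 3-month replicate 1, tumor 12-month replicate 2 and tumor 3-month replicates 1 and 3 each ended the call, with adjusted p from 0.0501 to 0.340, the highest and a log2 fold change of 0.25 without tumor 3-month replicate 1.

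P4hb is the founding disulfide isomerase of the ER and a subunit of prolyl hydroxylase. P4hb in macrophages stood at 533, 522, 503 and 603 CPM at 3 months and 686, 497, 403 and 593 CPM at 12 months in spleen, against 1457, 1209, 1331 and 1311 CPM at 3 months and 1372, 1544, 1456 and 1258 CPM at 12 months in tumor, with no overlap. P4hb in dendritic cells stood at 161, 179.5 and 148 CPM at 3 months and 109.7, 115 and 149 CPM at 12 months in spleen, against 268, 401, 332 and 347 CPM at 3 months and 271, 349.9 and 325 CPM at 12 months in tumor, again with no overlap. Its log2 fold change was 1.55 (SE 0.11, adjusted p = 8.75e-10) in macrophages and 1.51 (SE 0.11, adjusted p = 6.98e-08) in dendritic cells. In the T cells the ranges overlapped. P4hb was 413 CPM (348 to 456) as the median (lowest to highest) of spleen regulatory T cells and 498 CPM (426 to 635) in tumor, and 95.02 CPM (83.3 to 111) and 148 CPM (103 to 178) in CD8 T cells, with log2 fold changes of 0.58 (SE 0.09, adjusted p = 1.63e-05) and 0.68 (SE 0.11, adjusted p = 1.34e-05).

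Calr encodes calreticulin, the chaperone that holds newly glycosylated proteins and calcium in the ER. Calr in macrophages stood at 179, 138, 129 and 151 CPM at 3 months and 161, 145, 130.3 and 177 CPM at 12 months in spleen, against 419, 504, 370.3 and 312 CPM at 3 months and 339.6, 422, 414 and 289.6 CPM at 12 months in tumor. Calr in regulatory T cells stood at 222, 203, 260.3 and 195 CPM at 3 months and 271, 256, 262 and 222 CPM at 12 months in spleen, against 331, 293, 335 and 351 CPM at 3 months and 289, 301, 310.5 and 338 CPM at 12 months in tumor. Tumor lay above spleen in all libraries of these types and of dendritic cells, with log2 fold changes of 1.56 (SE 0.12, adjusted p = 1.70e-09), 0.67 (SE 0.09, adjusted p = 1.18e-06) and 0.99 (SE 0.12, adjusted p = 8.31e-06). The ranges overlapped in CD8 T cells, at 86.9 CPM (77.2 to 111) in spleen and 118 CPM (93.3 to 127) in tumor, and the log2 fold change was 0.44 (SE 0.10, adjusted p = 0.00114). Calr in conventional CD4 T cells was 103 CPM (71.3 to 106) in spleen and 87.5 CPM (53.5 to 130.4) in tumor, a log2 difference of 0.06 (SE 0.18, adjusted p = 0.851).

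Hspa5, or BiP, the ER's HSP70 and the regulator that holds the sensors inactive, stood in macrophages at 1005, 1059, 849 and 920.1 CPM at 3 months and 1019, 799, 965 and 1146 CPM at 12 months in spleen, against 3066, 2554, 1628 and 1490 CPM at 3 months and 1780, 1687, 1724 and 1526 CPM at 12 months in tumor. It did not overlap between the tissues in macrophages, dendritic cells or CD8 T cells, where its log2 fold changes were 1.20 (SE 0.14, adjusted p = 5.31e-07), 1.17 (SE 0.10, adjusted p = 4.83e-07) and 1.08 (SE 0.10, adjusted p = 2.61e-09). In regulatory T cells, by contrast, its medians were 999 CPM (939 to 1272) and 1115 CPM (952 to 1316), and the call of 0.28 (SE 0.09, adjusted p = 0.0147) was lost on totals, at 0.05 (adjusted p = 0.679). Sdf2l1, an ER partner of DNAJB chaperones, rose in the same 4 types that Hspa5 did, by 1.62 in macrophages, 1.04 in dendritic cells, 1.09 in regulatory T cells and 1.36 in CD8 T cells. Manf, a secreted ER stress factor, rose in these types by 1.34, 1.01, 1.02 and 0.89, and Creld2 by 1.12, 0.50, 0.83 and 1.24. Canx, the membrane partner of calreticulin, rose in macrophages (0.73) and dendritic cells (0.67) and did not pass the test in T cells, with log2 fold changes from 0.05 to 0.19. Dnajb9 was the one folding gene that fell in macrophages, from 114 CPM (87.8 to 167) to 58.1 CPM (46.3 to 75.7), a log2 difference of -0.75 (SE 0.15, adjusted p = 2.60e-04), while it rose by 0.95 in CD8 T cells. Dnajc3 fell from 186 CPM (177 to 204) to 119 CPM (98.4 to 149) in regulatory T cells, with no overlap and a log2 difference of -0.36 (SE 0.09, adjusted p = 0.00279).

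**Figure D2:**
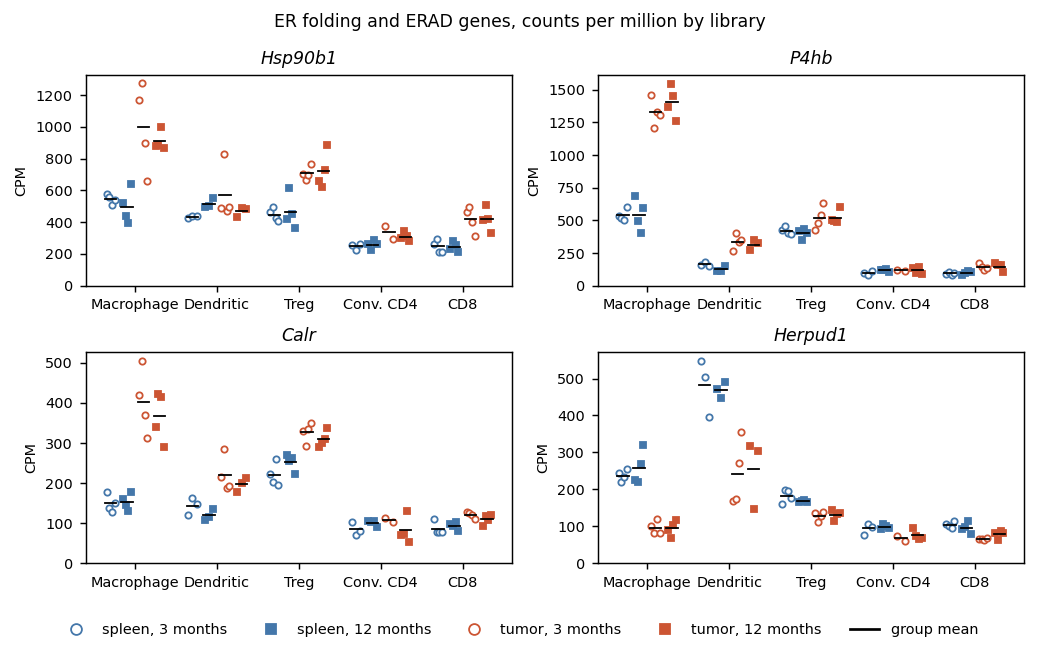
CPM of Hsp90b1, P4hb, Calr and Herpud1 in each library, by cell type, tissue (blue spleen, red tumor) and age (open 3 months, filled 12 months), with a bar at each group mean. In macrophages Hsp90b1, P4hb and Calr lie higher in every tumor library and Herpud1 lower, and Herpud1 is highest in spleen dendritic cells.

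Summed over the 14 genes, ER folding transcripts were 3689 to 5070 CPM in spleen macrophages and 6664 to 10680 CPM in tumor macrophages. They were 3247 to 3706 and 4594 to 6713 CPM in dendritic cells, and 2117 to 2550 and 3147 to 3869 CPM in CD8 T cells, without overlap in these 3 types. Sums in regulatory T cells were 4153 to 5088 and 4845 to 6340 CPM. In conventional CD4 T cells they were 2121 to 3256 and 2572 to 3012 CPM. The tissues overlapped in both types. Spleen macrophages, the low side of the macrophage comparison, are the libraries with neutrophil markers of 3523 to 28520 CPM.

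The ERAD arm did not follow the chaperones. Herpud1, an ER membrane scaffold of the degradation complex, fell in macrophages, dendritic cells and CD8 T cells, and Syvn1, the ubiquitin ligase HRD1 of that complex, fell in macrophages and dendritic cells. Edem1, which hands misfolded glycoproteins to the complex, rose in macrophages, dendritic cells, regulatory T cells and conventional CD4 T cells. In counts over the 4 genes, 1 rose and 2 fell in macrophages, 1 rose and 3 fell in dendritic cells, 1 rose in regulatory T cells, 1 rose in conventional CD4 T cells and 1 fell in CD8 T cells. Over all genes, 51.7%, 47.1%, 53.5%, 27.2% and 42.1% changed in that order, so that the counts in the T cell types were not above the background.

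Herpud1 stood in macrophages at 244, 219, 232 and 254 CPM at 3 months and 225, 219, 268 and 319 CPM at 12 months in spleen, against 99.95, 80.99, 119 and 81.7 CPM at 3 months and 89.2, 67.9, 104 and 117 CPM at 12 months in tumor. Each tumor library was below each spleen library. Herpud1 in dendritic cells stood at 547, 503 and 396 CPM at 3 months and 473, 446 and 491 CPM at 12 months in spleen, against 169, 174, 272 and 357 CPM at 3 months and 318, 148 and 303 CPM at 12 months in tumor. The lowest tumor values there were those of 3-month replicates 1 and 2 and 12-month replicate 2, and every one lay below spleen. Its log2 fold change was -1.17 (SE 0.12, adjusted p = 1.61e-07) in macrophages, -0.60 (SE 0.21, adjusted p = 0.0335) in dendritic cells and -0.40 (SE 0.10, adjusted p = 0.00215) in CD8 T cells. The dendritic cell call was lost in 9 of 22 alternatives, among them the replicate block (adjusted p = 0.056) and, left out one at a time, spleen 12-month replicates 1, 3 and 4, spleen 3-month replicates 1 and 3 and tumor 3-month replicate 1 (adjusted p from 0.0503 to 0.0824). Plasma cell markers, summed, were also lower in tumor than spleen in both myeloid types (values above), and their part was not tested.

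Syvn1 stood in macrophages at 24.6, 32.96, 33.7 and 22.4 CPM at 3 months and 24.6, 31.7, 42.8 and 43.3 CPM at 12 months in spleen, against 17.8, 20.5, 9.92 and 19.5 CPM at 3 months and 11.2, 21.4, 13.1 and 12.6 CPM at 12 months in tumor, without overlap. Syvn1 in dendritic cells stood at 25.9, 31.8 and 42.8 CPM at 3 months and 53.9, 49.9 and 74.2 CPM at 12 months in spleen, against 24.6, 22.7, 21.6 and 25.9 CPM at 3 months and 22.2, 26.4 and 30.04 CPM at 12 months in tumor. The spleen values at 12 months were above those at 3 months. The log2 fold change was -0.80 (SE 0.20, adjusted p = 0.00224) in macrophages and -0.51 (SE 0.15, adjusted p = 0.0114) in dendritic cells. Without the 2 spleen dendritic cell libraries of conflicting age labels it was -0.37 (adjusted p = 0.187), and with them placed by their age tag -0.21 (adjusted p = 0.549). Sel1l, the adaptor of HRD1, fell in dendritic cells from 211 CPM (178 to 248) to 125 CPM (106 to 156), by a log2 difference of -0.43 (SE 0.13, adjusted p = 0.0124), and that call too was lost under both of those alternatives (adjusted p = 0.0878 and 0.0917).

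Edem1 in dendritic cells stood at 184, 158 and 213 CPM at 3 months and 244, 231 and 216 CPM at 12 months in spleen, against 348, 372, 354 and 285 CPM at 3 months and 334, 309.7 and 342 CPM at 12 months in tumor. Every tumor library was above every spleen library. The log2 fold change was 1.03 (SE 0.10, adjusted p = 1.99e-06). In the other types the ranges overlapped and the changes were smaller, at 0.32 in macrophages, 0.33 in regulatory T cells and 0.51 in conventional CD4 T cells. On totals the calls in macrophages (0.11, adjusted p = 0.445) and regulatory T cells (0.09, adjusted p = 0.443) were lost. The macrophage call was also lost without spleen 3-month replicate 4 (adjusted p = 0.0511), and that in conventional CD4 T cells without tumor 3-month replicate 1 (adjusted p = 0.0923).

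Among the sensors and their factors, all 6 rose in CD8 T cells, and 4 rose in regulatory and in conventional CD4 T cells (Xbp1, Atf6, Ern1 and Eif2ak3). In dendritic cells Xbp1, Atf4 and Ddit3 rose and Eif2ak3 fell. In macrophages none rose and Eif2ak3 fell. Over all genes, 22.5% rose in CD8, 25.9% in regulatory and 16% in conventional CD4 T cells. In dendritic cells 24.4% of all genes rose and 22.7% fell, and in macrophages 23.9% and 27.8%. The macrophage count was thus not above the background.

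Atf6 rose in the 3 T cell types and in neither myeloid type. Atf6 in CD8 T cells stood at 10.8, 8.78, 9.82 and 11.5 CPM at 3 months and 14.3, 21.9, 20.2 and 9.08 CPM at 12 months in spleen, against 73.8, 70.3, 52.96 and 83.9 CPM at 3 months and 79.5, 67.1, 75.97 and 37.3 CPM at 12 months in tumor. Atf6 in regulatory T cells stood at 37.2, 24.9, 37.8 and 32.9 CPM at 3 months and 35.2, 42.6, 23.9 and 22.1 CPM at 12 months in spleen, against 138, 132, 103 and 132 CPM at 3 months and 121, 138, 126 and 92.9 CPM at 12 months in tumor. Atf6 in conventional CD4 T cells stood at 15.2, 15.2 and 6.19 CPM at 3 months and 18.9, 18.6, 18.2 and 18.4 CPM at 12 months in spleen, against 75.95 and 39.4 CPM at 3 months and 66.4, 48.4, 51.3 and 43.2 CPM at 12 months in tumor. In all 3 types no tumor library reached down to a spleen library. The log2 fold changes were 2.47 (SE 0.18, adjusted p = 1.26e-10), 2.17 (SE 0.15, adjusted p = 1.01e-10) and 1.93 (SE 0.23, adjusted p = 2.50e-07). In macrophages the values were 143, 152, 146 and 205 CPM at 3 months and 168, 135, 73.5 and 118 CPM at 12 months in spleen, against 97.3, 172, 150.5 and 197 CPM at 3 months and 125, 174, 127 and 161 CPM at 12 months in tumor. The difference was 0.30 (SE 0.16, adjusted p = 0.128). In dendritic cells tumor lay below spleen in every library, at 151, 163 and 140.4 CPM at 3 months and 250.2, 198 and 188 CPM at 12 months in spleen, against 119.7, 108, 119 and 122 CPM at 3 months and 129, 131 and 103 CPM at 12 months in tumor. The TMM value there was -0.26 (SE 0.10, adjusted p = 0.0533). It passed the threshold on totals (-0.58, adjusted p = 0.000232), with DESeq2's size factors (-0.30, adjusted p = 0.0275) and with DESeq2's Wald test (-0.30, adjusted p = 0.0201).

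Ern1, the sensor that splices Xbp1, stood in regulatory T cells at 6.05, 4.53, 7.04 and 4.73 CPM at 3 months and 7.98, 5.52, 10.3 and 4.86 CPM at 12 months in spleen, against 20.5, 37.5, 25.4 and 24.6 CPM at 3 months and 24.7, 38.6, 23.5 and 14.7 CPM at 12 months in tumor. Ern1 in conventional CD4 T cells stood at 6.01, 3.66 and 6.59 CPM at 3 months and 9.07, 3.51, 7.48 and 8.82 CPM at 12 months in spleen, against 11.5 and 27.2 CPM at 3 months and 35.7, 30.9, 40.9 and 38.5 CPM at 12 months in tumor. Both types had every tumor library above spleen, with the lowest tumor value of conventional CD4 T cells in 3-month replicate 1. Ern1 in CD8 T cells stood at 2.303, 4.62, 3.42 and 2.44 CPM at 3 months and 1.53, 1.61, 3.75 and 2.095 CPM at 12 months in spleen, against 8.53, 7.94, 7.29 and 5.38 CPM at 3 months and 6.396, 8.09, 4.79 and 3.605 CPM at 12 months in tumor, and the ranges overlapped. The log2 fold changes were 2.29 (SE 0.23, adjusted p = 3.90e-08), 2.08 (SE 0.29, adjusted p = 3.68e-06) and 1.33 (SE 0.32, adjusted p = 0.00163). In the myeloid cells they were -0.11 (SE 0.21, adjusted p = 0.678) in macrophages and 0.01 (SE 0.18, adjusted p = 0.975) in dendritic cells.

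Xbp1 transcripts, spliced and unspliced together in these gene counts, stood in CD8 T cells at 54.6, 21.7, 47.5 and 37.9 CPM at 3 months and 37.9, 34.5, 31.8 and 50.1 CPM at 12 months in spleen, against 140.5, 87.8, 134 and 146 CPM at 3 months and 114, 75.9, 123 and 119 CPM at 12 months in tumor. Xbp1 in conventional CD4 T cells stood at 32.6, 50.00 and 20.4 CPM at 3 months and 46.8, 77.2, 96.1 and 93.6 CPM at 12 months in spleen, against 87.3 and 106 CPM at 3 months and 93.8, 208, 188 and 115 CPM at 12 months in tumor. Its lowest tumor library, 3-month replicate 1, was under the highest of spleen. Xbp1 in dendritic cells stood at 204, 257 and 259 CPM at 3 months and 165, 200.2 and 211 CPM at 12 months in spleen, against 324, 509, 361 and 291 CPM at 3 months and 186, 424 and 358 CPM at 12 months in tumor. There 12-month tumor replicate 1 lay inside the spleen range. Xbp1 rose by 1.65 (SE 0.17, adjusted p = 4.84e-08) in CD8 T cells, 1.27 (SE 0.21, adjusted p = 4.66e-05) in conventional CD4 T cells, 1.12 (SE 0.14, adjusted p = 8.82e-07) in regulatory T cells and 0.98 (SE 0.15, adjusted p = 8.67e-05) in dendritic cells. In macrophages Xbp1 was 495 CPM (429 to 601) in spleen and 435 CPM (383 to 491) in tumor, a log2 difference of 0.04 (SE 0.10, adjusted p = 0.784).

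Eif2ak3, which encodes PERK, moved in opposite directions in macrophages and T cells. Eif2ak3 in macrophages stood at 39.8, 44.4, 39.6 and 34.4 CPM at 3 months and 53.6, 43.02, 57.4 and 35.01 CPM at 12 months in spleen, against 8.797, 9.58, 12.8 and 15.7 CPM at 3 months and 16.1, 10.9, 17.1 and 6.86 CPM at 12 months in tumor, and all tumor libraries were lower. Eif2ak3 in dendritic cells stood at 56.95, 48.2 and 40.3 CPM at 3 months and 51.8, 51.8 and 35.9 CPM at 12 months in spleen, against 28.9, 18.2, 29.8 and 23.4 CPM at 3 months and 28.6, 24.7 and 21.2 CPM at 12 months in tumor, again with all tumor libraries lower. Eif2ak3 in CD8 T cells stood at 25.8, 17.3, 18.6 and 18.6 CPM at 3 months and 17.5, 24.2, 13.6 and 23.8 CPM at 12 months in spleen, against 54.5, 42.7, 28.8 and 22.3 CPM at 3 months and 28.7, 41.1, 62.6 and 38.6 CPM at 12 months in tumor. There tumor 3-month replicate 4 lay inside the spleen range. The log2 fold change was -1.62 (SE 0.20, adjusted p = 1.59e-06) in macrophages, -0.59 (SE 0.15, adjusted p = 0.00568) in dendritic cells and 1.08 (SE 0.20, adjusted p = 9.46e-05) in CD8 T cells. It rose by 0.79 (SE 0.28, adjusted p = 0.0235) in regulatory T cells and by 0.68 (SE 0.24, adjusted p = 0.0395) in conventional CD4 T cells, and both calls were lost on totals (adjusted p = 0.113 and 0.0582). The regulatory T cell call was lost without spleen 12-month replicate 2, tumor 12-month replicate 1 or tumor 3-month replicate 1 (adjusted p from 0.0513 to 0.0590). That in conventional CD4 T cells was lost without spleen 12-month replicate 1, 2 or 3, spleen 3-month replicate 1 or 4, tumor 12-month replicate 3 or 4 or tumor 3-month replicate 1 (adjusted p from 0.0523 to 0.328).

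**Figure D3:**
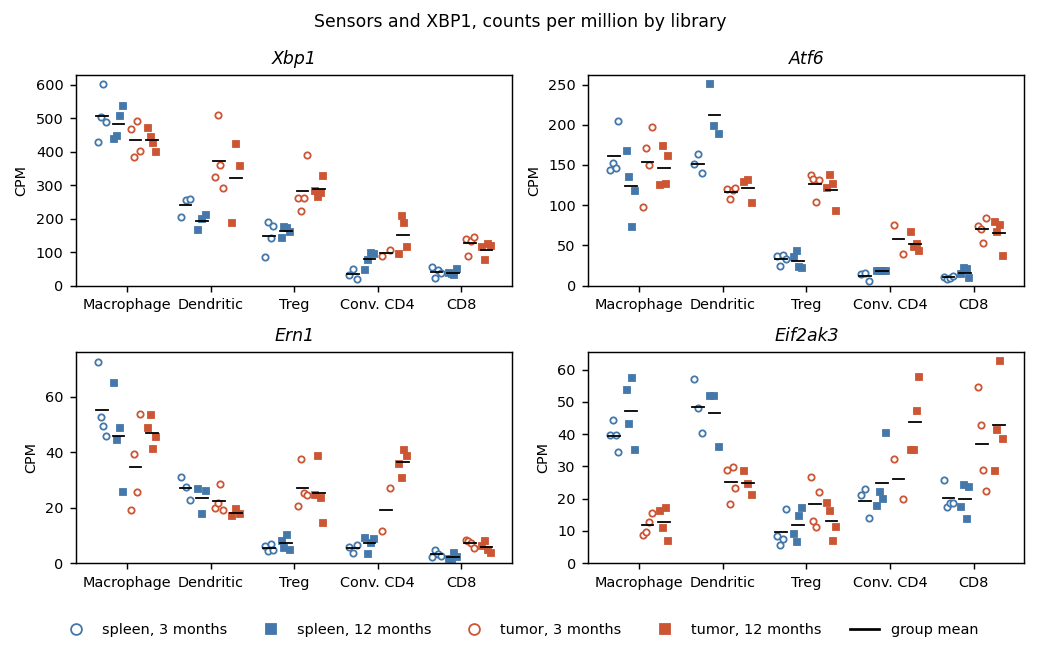
CPM of Xbp1, Atf6, Ern1 and Eif2ak3 in each library, by cell type, tissue (blue spleen, red tumor) and age (open 3 months, filled 12 months), with a bar at each group mean. Atf6 is higher in every tumor than spleen library of the 3 T cell types, and Eif2ak3 is lower in every tumor library of macrophages and dendritic cells.

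Atf4 itself and Ddit3, which encodes the transcription factor CHOP, rose in dendritic cells and CD8 T cells. Atf4 in dendritic cells stood at 176, 163 and 152 CPM at 3 months and 169, 145 and 142 CPM at 12 months in spleen, against 247, 221, 265 and 280.5 CPM at 3 months and 250.1, 244 and 322 CPM at 12 months in tumor, with no overlap. Atf4 in CD8 T cells stood at 237, 167, 179.8 and 174 CPM at 3 months and 212, 206, 167 and 180.4 CPM at 12 months in spleen, against 267, 214, 242 and 319.6 CPM at 3 months and 255, 272, 216 and 316 CPM at 12 months in tumor, where the ranges overlapped. The log2 fold changes were 1.07 (SE 0.11, adjusted p = 2.01e-06) and 0.55 (SE 0.11, adjusted p = 2.57e-04). Ddit3 in dendritic cells stood at 26.1, 11.6 and 13.1 CPM at 3 months and 19.96, 19.3 and 23.2 CPM at 12 months in spleen, against 35.9, 26.7, 33.9 and 36.98 CPM at 3 months and 25.01, 23.4 and 23.6 CPM at 12 months in tumor. The 12-month tumor values lay close to the upper end of spleen. It rose by 0.94 (SE 0.18, adjusted p = 6.76e-04) there and by 0.59 (SE 0.16, adjusted p = 0.00499) in CD8 T cells. In macrophages, regulatory T cells and conventional CD4 T cells the log2 fold changes of Atf4 were -0.15, 0.15 and -0.03 and those of Ddit3 -0.17, 0.13 and 0.06, none past the threshold, while on totals Atf4 in macrophages was -0.38 (adjusted p = 0.0187). ATF4 is set mainly at translation, which RNA counts do not measure.

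Of the 4 feedback genes, Ppp1r15a rose in dendritic and CD8 T cells and fell in macrophages and regulatory T cells. Trib3 and Sesn2 rose in 2 types each, and Chac1 fell in macrophages. Ppp1r15a encodes GADD34, the phosphatase subunit that reverses eIF2 phosphorylation. Ppp1r15a in regulatory T cells stood at 631, 584, 587 and 479 CPM at 3 months and 587, 390.2, 560.1 and 366 CPM at 12 months in spleen, against 217, 175, 190.1 and 228 CPM at 3 months and 159, 207, 117 and 202 CPM at 12 months in tumor. Ppp1r15a in dendritic cells stood at 46.4, 51.3 and 21.6 CPM at 3 months and 20.6, 20.1 and 16.8 CPM at 12 months in spleen, against 70.7, 78.3, 93.1 and 133 CPM at 3 months and 90.01, 54.9 and 141 CPM at 12 months in tumor. The tissues did not overlap in either type, and the log2 fold change was -1.25 (SE 0.13, adjusted p = 9.09e-08) in regulatory T cells and 2.10 (SE 0.27, adjusted p = 5.06e-05) in dendritic cells. Ppp1r15a in macrophages stood at 366, 287, 242 and 277 CPM at 3 months and 364, 197, 383 and 271 CPM at 12 months in spleen, against 160.5, 102, 143 and 170.3 CPM at 3 months and 185, 196, 100.5 and 138 CPM at 12 months in tumor. There was no overlap, and the log2 fold change was -0.78 (SE 0.17, adjusted p = 0.00101). Ppp1r15a in CD8 T cells rose by 0.63 (SE 0.20, adjusted p = 0.0159), and without tumor replicate 4 at 3 and 12 months, where mitochondrial genes took 9.26% and 8.34% of counts, it was 0.44 (adjusted p = 0.056).

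Trib3 encodes a pseudokinase that restrains ATF4 and CHOP. Trib3 in macrophages stood at 3.65, 1.08, 4.35 and 1.501 CPM at 3 months and 1.38, 2.88, 2.13 and 3.82 CPM at 12 months in spleen, against 6.598, 2.61, 1.89 and 7.57 CPM at 3 months and 7.54, 8.79, 3.53 and 7.66 CPM at 12 months in tumor, and the ranges overlapped. Trib3 in dendritic cells stood at 0.7998, 0 and 0 CPM at 3 months and 0.411, 0 and 0.586 CPM at 12 months in spleen, against 1.91, 2.304, 4.17 and 3.91 CPM at 3 months and 2.84, 5.16 and 2.71 CPM at 12 months in tumor. The spleen dendritic cell libraries held 5 reads of it at 3 months and 5 at 12 months, and 3 of the 6 libraries held none, against 87 and 59 reads in tumor. Trib3 rose by 1.36 (SE 0.40, adjusted p = 0.00797) in macrophages and, on those few spleen reads, by 3.74 (SE 0.81, adjusted p = 0.00156) in dendritic cells.

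Chac1, which degrades glutathione, was found mainly in spleen macrophages, at 9.41, 15.3, 12.4 and 14.4 CPM at 3 months and 20.04, 9.99, 33.7 and 16.8 CPM at 12 months. Tumor macrophages had 0.244, 1.96, 0.709 and 4.596 CPM at 3 months and 2.86, 3.197, 0.504 and 0.957 CPM at 12 months, all lower, with a log2 difference of -2.88 (SE 0.44, adjusted p = 1.91e-05). In T cells no library passed 1.45 CPM, and CD8 T cells of spleen at both ages and of tumor at 3 months, and spleen regulatory and conventional CD4 T cells at 12 months, had no read in any library. Sesn2, a leucine-sensing stress protein, was 2.895 CPM (0.744 to 4.400) in spleen and 5.44 CPM (2.31 to 14.8) in tumor CD8 T cells and rose by 1.35 (SE 0.41, adjusted p = 0.0102). It rose by 1.49 (SE 0.51, adjusted p = 0.03097) in conventional CD4 T cells, where it stood at 0.316, 3.05 and 0.799 CPM at 3 months and 7.99, 4.01, 8.28 and 2.94 CPM at 12 months in spleen, against 4.03 and 13.5 CPM at 3 months and 5.41, 4.84, 6.85 and 10.3 CPM at 12 months in tumor. That call was lost with no filter on low counts (adjusted p = 0.0571) and without spleen 12-month replicate 2 or 4, spleen 3-month replicate 1 or 4, tumor 12-month replicate 4 or tumor 3-month replicate 3 (adjusted p from 0.0527 to 0.309).

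In the amino acid and one-carbon arm some genes rose and others fell in every type. Of its 8 genes, 3 rose and 1 fell in macrophages, 5 rose and 1 fell in dendritic cells, 4 rose and 1 fell in CD8 T cells, and 2 rose and 2 fell in conventional CD4 T cells. In regulatory T cells 2 of the 7 tested rose and 1 fell. Over all genes, 51.7%, 47.1%, 42.1%, 27.2% and 53.5% changed in that order, so that the counts in macrophages and regulatory T cells were not above the background. The medians were -0.10, 0.79, 0.66, -0.27 and -0.13 in that order, against -0.06, -0.04, -0.01, 0.04 and -0.05 over all genes.

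Slc3a2 encodes CD98, the shared heavy chain of the transporters whose light chains include SLC7A5 and SLC7A11. Slc3a2 in macrophages stood at 154, 126, 170.5 and 139.9 CPM at 3 months and 159, 144, 194 and 211 CPM at 12 months in spleen, against 813, 579.8, 626 and 751 CPM at 3 months and 818, 807, 554 and 696 CPM at 12 months in tumor. Slc3a2 in CD8 T cells stood at 189.7, 161, 209 and 204 CPM at 3 months and 218, 203, 227 and 220.2 CPM at 12 months in spleen, against 424, 322, 408 and 411 CPM at 3 months and 375, 474, 364 and 479 CPM at 12 months in tumor. It is the one member of the 36 whose tumor libraries were all above spleen in all 5 types. The share of all genes without overlap between the tissues was not counted, here or for the other members. Its log2 fold change was 2.35 (SE 0.13, adjusted p = 2.02e-11) in macrophages and 2.17 (SE 0.09, adjusted p = 4.14e-10) in dendritic cells. Slc3a2 differed by 1.40 (SE 0.12, adjusted p = 2.26e-09) in regulatory T cells, 1.34 (SE 0.16, adjusted p = 1.52e-07) in conventional CD4 T cells and 1.08 (SE 0.09, adjusted p = 1.60e-09) in CD8 T cells. No alternative moved any of the 5 calls. The light chains differed from it. Slc7a5, the leucine transporter LAT1, rose in dendritic cells by 0.98 (SE 0.36, adjusted p = 0.0366), a call lost on totals (adjusted p = 0.143) and without any 1 of spleen 12-month replicates 1, 3 and 4, spleen 3-month replicate 1, tumor 12-month replicates 1 and 3 and tumor 3-month replicates 1 and 4 (adjusted p from 0.0598 to 0.114). It was -0.97 in conventional CD4 and -0.58 in regulatory T cells, neither past the threshold. Slc7a11, the cystine transporter, rose in dendritic cells from 11.7 CPM (5.76 to 19.9) to 43.03 CPM (33.2 to 69.7), with no overlap and a log2 difference of 2.19 (SE 0.24, adjusted p = 3.60e-06), and was -0.36 in macrophages (106 CPM (54.3 to 245) in spleen, 59.6 CPM (21.03 to 153) in tumor). Its rise in conventional CD4 T cells (1.74 (SE 0.65, adjusted p = 0.0467)) rests on 31 reads at 3 months and 21 at 12 months in spleen and on 50 and 76 in tumor. It was lost without any 1 of the 13 libraries (adjusted p from 0.0550 to 0.109), apart from 12-month spleen replicate 4 and 12-month tumor replicate 1.

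Asns, asparagine synthetase, was low in every type, with at most 23.9 CPM. Asns in CD8 T cells stood at 0, 0.462, 0.595 and 1.22 CPM at 3 months and 2.04, 4.84, 3.75 and 6.29 CPM at 12 months in spleen, against 9.52, 6.13, 4.62 and 7.24 CPM at 3 months and 6.396, 23.9, 5.91 and 8.48 CPM at 12 months in tumor. Asns in dendritic cells stood at 1.28, 0.684 and 3.398 CPM at 3 months and 2.88, 0.161 and 1.37 CPM at 12 months in spleen, against 6.67, 12.9, 6.71 and 4.92 CPM at 3 months and 1.14, 7.66 and 2.46 CPM at 12 months in tumor. The ranges overlapped in both types. It rose by 2.61 (SE 0.44, adjusted p = 3.66e-05) in CD8 T cells, 2.00 (SE 0.63, adjusted p = 0.0172) in dendritic cells and 1.25 (SE 0.40, adjusted p = 0.0123) in regulatory T cells. The dendritic cell call was lost without tumor replicate 2 of both ages, the libraries richest in macrophage transcripts (1.33, adjusted p = 0.105), without the 12-month one alone (adjusted p = 0.0578), and with the spleen libraries of conflicting labels placed by their age tag (adjusted p = 0.0755) or left out (adjusted p = 0.08005). Psat1, an enzyme of serine synthesis, rose in macrophages (0.75), dendritic cells (0.59) and CD8 T cells (0.87), the dendritic cell call being lost on totals (0.26, adjusted p = 0.278) and in the replicate block (0.56, adjusted p = 0.0556). It was also lost without spleen 12-month replicate 3 or 4 or spleen 3-month replicate 1 (adjusted p from 0.0568 to 0.0695).

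Shmt2 in CD8 T cells stood at 82.5, 82.5, 75.4 and 97.3 CPM at 3 months and 66.4, 104, 83.4 and 93.8 CPM at 12 months in spleen, against 50.5, 44.5, 34.7 and 35.5 CPM at 3 months and 52.5, 54.6, 32.4 and 40.7 CPM at 12 months in tumor. Shmt2 in conventional CD4 T cells stood at 46.5, 50.6 and 45.9 CPM at 3 months and 47.5, 27.6, 34.2 and 55.9 CPM at 12 months in spleen, against 21.9 and 12.00 CPM at 3 months and 13.7, 17.6, 17.3 and 15.97 CPM at 12 months in tumor. Both types had every tumor library below spleen. Shmt2 in regulatory T cells stood at 106, 130.5, 131 and 126 CPM at 3 months and 144, 117, 152 and 143 CPM at 12 months in spleen, against 36.6, 21.7, 56.1 and 77.2 CPM at 3 months and 30.99, 37.4, 63.5 and 119 CPM at 12 months in tumor. Replicate 4 of each age was the highest in tumor. The log2 fold change was -0.91 (SE 0.13, adjusted p = 3.73e-06) in CD8 T cells, -1.38 (SE 0.23, adjusted p = 4.20e-05) in conventional CD4 T cells and -1.03 (SE 0.26, adjusted p = 0.00289) in regulatory T cells. In macrophages it rose by 0.78 (SE 0.26, adjusted p = 0.0184), a call lost on totals (0.54, adjusted p = 0.106), and 12-month spleen replicate 4, at 74.3 CPM, lay above all tumor libraries. Phgdh fell by 0.94 in macrophages (adjusted p = 0.0682 without 12-month spleen replicate 4), by 1.36 in dendritic cells and by 0.71 in conventional CD4 T cells (adjusted p = 0.0572 without tumor 3-month replicate 1). Mthfd2, a mitochondrial folate enzyme, rose in CD8 T cells by 0.44 (SE 0.12, adjusted p = 0.00548) and was -0.38 in conventional CD4 T cells, not past the threshold (adjusted p = 0.108).

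**Figure D4:**
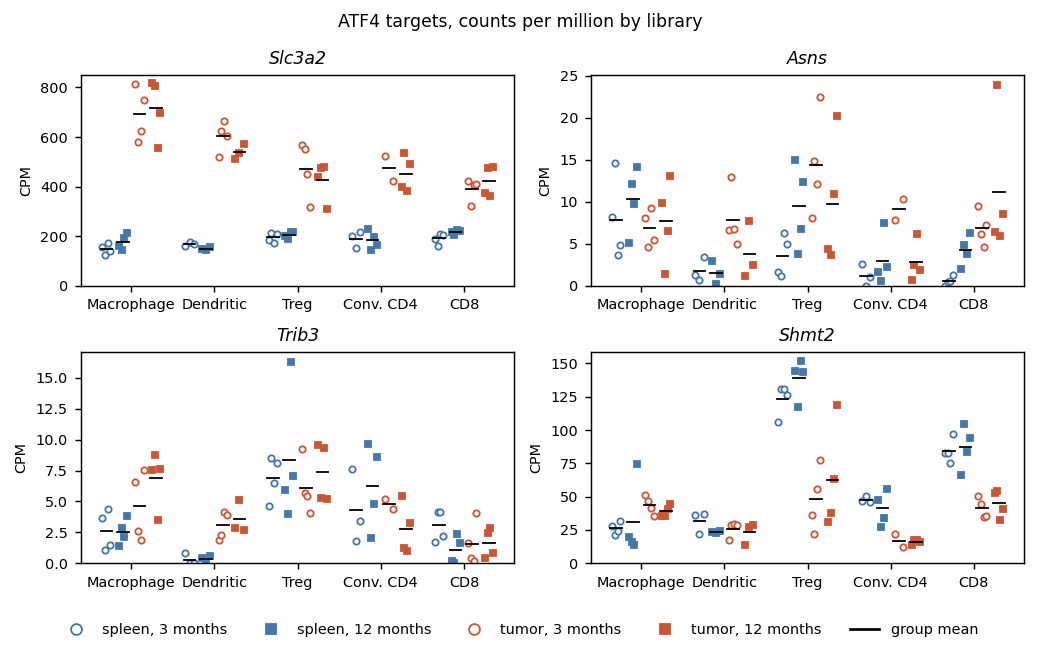
CPM of Slc3a2, Asns, Trib3 and Shmt2 in each library, by cell type, tissue (blue spleen, red tumor) and age (open 3 months, filled 12 months), with a bar at each group mean. Slc3a2 is higher in every tumor library of all 5 types, while Shmt2 is lower in every tumor library of conventional CD4 and CD8 T cells.

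The contrast between chaperones and ATF4 targets was put on one scale by averaging log2(CPM + 1) over each arm. The ER folding average was 7.62 ± 0.19 (SD, n = 8) in spleen and 8.43 ± 0.25 (SD, n = 8) in tumor macrophages, while the amino acid and one-carbon average was 4.74 ± 0.24 (SD, n = 8) and 4.83 ± 0.21 (SD, n = 8). The chaperones thus differed by 0.81 between tissues in macrophages and the ATF4 targets by 0.10. In dendritic cells the 2 differences were 0.50 and 0.53, so that the gap between the arms was 2.99 ± 0.25 (SD, n = 6) in spleen and 2.96 ± 0.18 (SD, n = 7) in tumor. In regulatory T cells the differences were 0.32 and -0.08, in conventional CD4 T cells 0.10 and -0.04, and in CD8 T cells 0.62 and 0.42. With library sizes scaled by TMM, both dendritic cell differences were 0.83, those of macrophages 1.04 and 0.31, and those of regulatory T cells 0.58 and 0.14, where the second changed sign. These averages weigh each gene alike and are described without a test.

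Other genes of these pathways were counted from lists drawn up with earlier results known. Of further ER genes outside the 36, 14 of 31 tested rose and none fell in macrophages, and 10 of 32 rose and 3 fell in dendritic cells. In T cells, 20 of 31 rose and 1 fell in regulatory T cells, 7 of 31 rose and none fell in conventional CD4 T cells, and 14 of 30 rose and 1 fell in CD8 T cells. Ero1l, the oxidase that recharges disulfide isomerases, chosen after its values were seen, rose in all 5, by 3.21, 2.86, 2.31, 1.72 and 1.38 in that order of types. Of further ATF4-linked genes, 19 of 36 rose and 5 fell in macrophages, and 20 of 36 rose and 2 fell in dendritic cells. In T cells, 10 of 31 rose and 7 fell in regulatory T cells, 6 of 36 rose and 3 fell in conventional CD4 T cells, and 7 of 31 rose and 4 fell in CD8 T cells. Over all genes 23.9% rose and 27.8% fell in macrophages, 24.4% and 22.7% in dendritic cells, 25.9% and 27.6% in regulatory T cells, 16% and 11.2% in conventional CD4 T cells and 22.5% and 19.6% in CD8 T cells. The ATF4-linked genes that rose in conventional CD4 and CD8 T cells were thus near the background.

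Age, the study's other factor, was compared within each tissue. No member passed the threshold in edgeR's quasi-likelihood test in any of the 5 cell types, in spleen or in tumor, nor did any in the test of whether the age difference differed between the tissues. Few other genes did: the share of all genes past the threshold was 0% in macrophages, 0.593% in dendritic cells, 0.0489% in regulatory T cells, 3.92% in conventional CD4 T cells and 1.02% in CD8 T cells of spleen. In tumor it was 0.0311% in conventional CD4 T cells (0.0155% higher and 0.0155% lower) and 0% in the other types. For the difference between tissues it was 0.668% in conventional CD4 T cells (0.0273% higher and 0.641% lower), 0.143% in CD8 T cells and 0% in the others. At an unadjusted p under 0.05, the members numbered 0 of 35 in macrophages, 9 of 33 in dendritic cells, 2 of 34 in regulatory T cells, 5 of 34 in conventional CD4 T cells and 3 of 34 in CD8 T cells of spleen, and 1 of 34, 2 of 36, 0 of 34, 4 of 35 and 0 of 34 in tumor. For the difference between tissues they numbered 0, 3, 1, 3 and 2. Of all genes, 6.07%, 12.1%, 5.33%, 19.6% and 7.78% had such a p in spleen in the same order of types, 6.02%, 1.31%, 3.94%, 5.29% and 486 of 11804 genes in tumor, and 4.81%, 5.56%, 3.9%, 10.3% and 4.74% for the difference. The 5 of 34 in spleen conventional CD4 T cells thus lay below the background. The 9 of 33 in spleen dendritic cells lay above it. So did the 4 of 35 in tumor conventional CD4 T cells and the 2 of 36 in tumor dendritic cells. DESeq2's Wald test called 1 member in spleen dendritic cells, 2 in spleen conventional CD4 T cells and 1 in spleen CD8 T cells, and none elsewhere. Of all genes it called 2.36%, 7.51% and 1.64% there, so that these counts stood near the background.

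The members nearest the threshold were in spleen T cells. Xbp1 in spleen conventional CD4 T cells stood at 32.6, 50.00 and 20.4 CPM at 3 months and 46.8, 77.2, 96.1 and 93.6 CPM at 12 months. The lowest 12-month library lay under the highest 3-month one, and the log2 fold change of 12 against 3 months was 1.05 (SE 0.30, adjusted p = 0.0568). The values of 32.6 and 20.4 CPM came from replicates 1 and 4, where ribosomal protein genes took 8.78% and 11.9% of counts. Such genes took 4.65% in 3-month replicate 3 and 3.93% to 4.49% at 12 months, and the part of this was not tested. Asns in spleen CD8 T cells stood at 0, 0.462, 0.595 and 1.22 CPM at 3 months and 2.04, 4.84, 3.75 and 6.29 CPM at 12 months. The ages did not overlap, on 11 and 78 reads, and the log2 fold change was 2.94 (SE 0.75, adjusted p = 0.0593). In tumor the ages overlapped for Asns, and the log2 fold change was 0.72. Syvn1 in spleen dendritic cells stood at 25.9, 31.8 and 42.8 CPM at 3 months and 53.9, 49.9 and 74.2 CPM at 12 months, with a log2 difference of 0.85 (SE 0.22, adjusted p = 0.108). The plasma cell markers in these spleen dendritic cells were 1698 to 5778 CPM at 3 months and 7097 to 10770 CPM at 12 months, and the 3-month group includes the 2 libraries with an age tag of 12 months. The part of either was not tested.

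**Figure D5:**
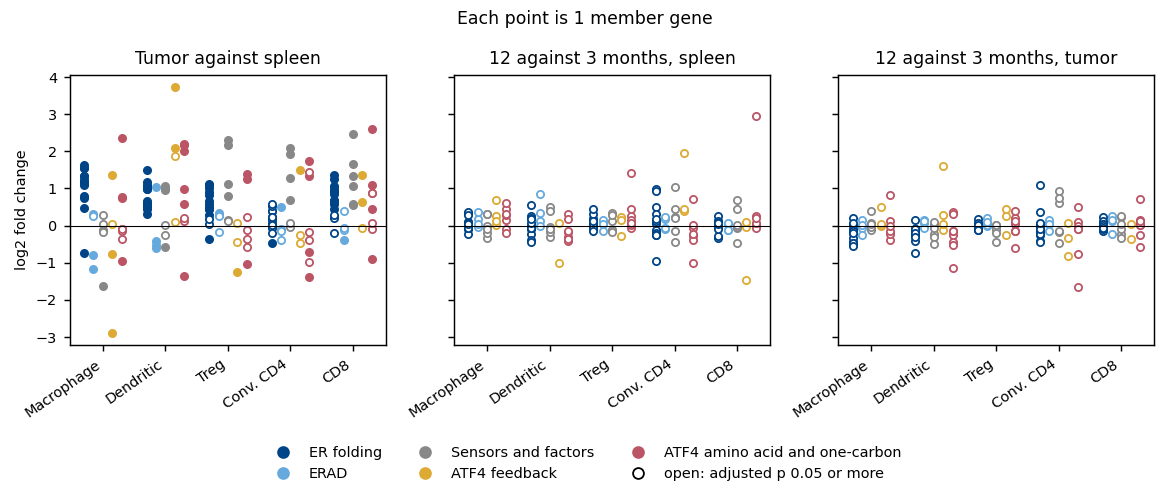
Log2 fold changes of each tested member in each cell type, for tumor against spleen over both ages and for 12 against 3 months within spleen and within tumor, colored by arm, filled where the adjusted p was under 0.05 and open otherwise. Filled points appear only in the tumor against spleen panel, and the highest open point in spleen, at 2.94, is Asns in CD8 T cells.

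Across cell types, the members were compared in one fit of all 20 groups (20244 genes). Myeloid cells (the average of macrophages and dendritic cells) were higher than the average of the 3 T cell types for 12 of the 14 ER folding genes in spleen (9 on totals) and lower for 1, and higher for all 14 in tumor with TMM. Regulatory T cells were not below every myeloid type: summed over the arm, regulatory T cells had 4699 ± 316 (SD, n = 8) CPM in spleen, against 4295 ± 453 (SD, n = 8) in macrophages and 3445 ± 191 (SD, n = 6) in dendritic cells. In tumor they had 5437 ± 554 (SD, n = 8) CPM, against 8257 ± 1336 (SD, n = 8) and 5049 ± 742 (SD, n = 7), the last within their spread. Mitochondrial genes took 0.82% to 1.47% of counts in macrophages and 0.86% to 2.01% in regulatory T cells. In the other types they took 3.16% to 11.2%, and what part this had in the sums was not tested. Of the 36 members, 22 were higher and 8 lower in myeloid than T cells of spleen, where 26.6% of all genes were higher and 25.3% lower. In tumor 25 were higher and 3 lower, where 26.6% were higher and 33.9% lower. The median over all genes was -0.26 in the tumor contrast with TMM and -0.61 on totals, where 12 of the 14 folding genes were still higher and Dnajb9 (-0.02) and Dnajc3 (-0.08) were not. The wider differences in tumor were those of Sdf2l1 (2.55 (SE 0.18, adjusted p = 6.59e-19)), P4hb (2.09 (SE 0.08, adjusted p = 8.76e-36)) and Pdia6 (1.84 (SE 0.10, adjusted p = 1.03e-26)). Of the ATF4 targets, Slc7a11 was higher in myeloid cells, with 59.6 CPM (21.03 to 153) in tumor macrophages against 2.43 CPM (1.09 to 6.81) in tumor CD8 T cells, and Phgdh lower, at -2.63 (SE 0.17, adjusted p = 6.74e-22).

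Within the myeloid cells, 9 members were higher and 15 lower in dendritic cells than in macrophages of spleen (21.1% and 21.8% of all genes), and 9 higher and 13 lower in tumor (18.5% and 17.3%). In both tissues the isomerases P4hb and Pdia4 were lower in dendritic cells, P4hb at -1.88 (SE 0.13, adjusted p = 1.08e-19) in spleen and -1.97 (SE 0.12, adjusted p = 1.11e-21) in tumor. Herpud1 and Edem1 were higher in dendritic cells in both, Herpud1 by 1.41 (SE 0.13, adjusted p = 5.58e-14) and Edem1 by 1.44 (SE 0.11, adjusted p = 3.96e-18) in tumor. Slc7a5 was higher by 2.75 (SE 0.40, adjusted p = 4.99e-08) in tumor. Mitochondrial genes took 0.82% to 1.47% of counts in macrophage libraries and 3.16% to 9.39% in dendritic cell libraries. What part this had in the differences was not tested.

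Within CD4 T cells, 18 members were higher and 7 lower in regulatory than in conventional cells of spleen (18.5% and 18% of all genes), and 16 higher and 6 lower in tumor (18% and 18.1%). In tumor 10 of 14 folding genes were higher and Dnajc3 lower, led by Dnajb11 (2.41 (SE 0.26, adjusted p = 1.83e-11)), Pdia4 (2.32 (SE 0.17, adjusted p = 7.20e-18)) and P4hb (2.19 (SE 0.13, adjusted p = 3.64e-22)). The serine enzymes were also higher in regulatory T cells of tumor, Psat1 by 2.16, Shmt2 by 1.74 and Phgdh by 1.498. Eif2ak3 was lower, at -1.08 (SE 0.24, adjusted p = 2.12e-04). The tumor conventional CD4 libraries held regulatory T cell markers of 994 to 2484 CPM against 3920 to 5056 CPM in tumor regulatory T cells. Mitochondrial genes took 0.86% to 2.01% of counts in regulatory and 5.06% to 10.9% in conventional CD4 libraries, both tissues together. The part of this in the differences was not tested either.

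Whether the tissue difference itself differed between cell types was tested in the same fit, as the tissue effect of a myeloid type minus the mean effect of the 3 T cell types. For macrophages it was larger for 13 members and smaller for 9 (14.1% and 21.3% of all genes), and on totals for 12 and 13. For dendritic cells it was larger for 15 and smaller for 6 (13% and 15.2%), and on totals for 11 and 10. The medians over all genes were -0.32 and -0.16, and -0.45 and -0.35 on totals. Calr and P4hb differed more between tissues in macrophages than in T cells, by 1.22 (SE 0.14, adjusted p = 2.40e-11) and 1.12 (SE 0.12, adjusted p = 2.25e-11). The sensors were on the other side, with Eif2ak3 at -2.42 (SE 0.26, adjusted p = 7.71e-12), Ern1 at -1.96 (SE 0.25, adjusted p = 1.24e-09), Atf6 at -1.86 (SE 0.20, adjusted p = 3.53e-12) and Xbp1 at -1.26 (SE 0.19, adjusted p = 8.74e-08). For dendritic cells Atf6 (-2.45 (SE 0.21, adjusted p = 6.47e-15)), Ern1 (-1.89) and Eif2ak3 (-1.44) were likewise on the negative side, while Ppp1r15a (2.39 (SE 0.31, adjusted p = 1.37e-08)) and Atf4 (0.84) were on the positive side. Shmt2 differed in direction, with 1.93 (SE 0.26, adjusted p = 1.16e-08) for macrophages minus T cells.

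The group with the highest mean differed by member. Tumor macrophages at 3 months had the highest mean of Hspa5, Hsp90b1, Calr, Pdia3, Pdia6 and Creld2, and 12-month tumor macrophages that of P4hb and Slc3a2. Spleen dendritic cells had the highest means of Herpud1, Syvn1, Sel1l, Atf6 and Eif2ak3, and spleen macrophages those of Xbp1, Ern1, Dnajb9, Chac1, Sesn2 and Slc7a11. Spleen regulatory T cells had the highest means of Ppp1r15a, Trib3, Psat1, Phgdh and Shmt2. Many neighbors in these orders do not differ beyond their spread. For Hspa5, tumor macrophages at 3 months ranged over 3066, 2554, 1628 and 1490 CPM and those at 12 months over 1780, 1687, 1724 and 1526 CPM.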

How the data were processed

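Per the labels' protocols, 1000 double-sorted cells per library were sequenced with Smart-seq2. Per the submitters' processing notes, STAR 2.5.3, featureCounts and mm10 were used. Not given in the sources used here are the gene annotation and strand setting, so reads of overlapping or antisense genes cannot be told apart. The authors deposited raw read counts per gene, with 74 libraries as columns. The members and the lists of other pathway genes and markers were chosen with earlier results of these data known.

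Libraries were grouped by title into 20 groups. Counts were tested as deposited with edgeR 4.0.16 (limma 3.58.1, R 4.3.3), by the quasi-likelihood test with robust dispersion, filterByExpr and TMM scaling, two-sided, with Benjamini-Hochberg adjustment over all genes tested and a threshold of 0.05. Tissue and age were fitted within each cell type (sex as covariate in dendritic cells), age also within each tissue, and cell types in a fit of all 74 libraries. There were 28 comparisons. The SE of a log2 fold change was taken as its absolute value divided by the square root of the test's F statistic. CPM and arm averages (pseudocount 1) were computed with Python 3.11.15, pandas 2.3.3 and numpy 2.4.6, and figures drawn with matplotlib 3.10.9. Alternatives were DESeq2 1.42.0 (size factors, Wald test), no filter, library totals, the replicate block, other sample sets and leaving out libraries. The scripts were tested on simulated counts.

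All members may be named. Values per library are given for the genes of each arm past the threshold in the most cell types (ties by adjusted p), for the sensors and, chosen after their values were seen, for Hspa5 and Chac1. No 2 libraries of a group had the same counts in 103 pairs, and all pairs differed beyond sampling noise. Same-numbered libraries deviated together in every pair, at a correlation above 0.1, in 1 comparison only. This was 12 against 3 months in tumor regulatory T cells (4 pairs, correlations of 0.17 to 0.48). In every other comparison the lowest pair was under 0.1, but some pairs were higher. The same age comparison in tumor ran from 0.06 to 0.64 in dendritic cells, -0.02 to 0.40 in macrophages and 0.099 to 0.33 in CD8 T cells. At these depths a gene with few reads, such as Trib3, Chac1, Asns or Slc7a11, is measured less precisely, and the reads carry no molecular identifiers. Promoter windows are from RefSeq, build GRCm38.p6, which is mm10, and 3 members had no entry.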

Additional observations from a re-analysis of the deposited data

Results flagged for a closer look

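Single libraries lay far from the rest of their group in 13 of 270 tests by Dixon's criterion, where chance gives about 1 in 20. In macrophages, Shmt2 was 74.3 CPM in spleen 12-month replicate 4 against 13.4 to 19.8 in the others. Spleen 3-month Atf6 was 205 CPM in replicate 4 (others 143 to 152) and Sesn2 62.9 in replicate 2 (42.5 to 43.7). Hsp90b1 in tumor 12-month replicate 3 was 1000 CPM (869 to 885). In tumor dendritic cells at 3 months, Hsp90b1 was 826 CPM in replicate 2 (471 to 497), the library rich in macrophage markers, and Shmt2 was 17.8 in replicate 1 (28.4 to 29.6).

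In spleen CD8 T cells at 3 months, replicate 1 had the highest Calr, 111 CPM (77.2 to 79.0), and Eif2ak3, 25.8 (17.3 to 18.6). In tumor CD8 T cells Edem1 was 217 CPM in 12-month replicate 4 (270 to 275), Asns 23.9 in 12-month replicate 2 (5.91 to 8.48) and Slc3a2 322 in 3-month replicate 2 (408 to 424). In tumor regulatory T cells P4hb was 601 CPM in 12-month replicate 4 (484 to 500) and Sesn2 3.54 in 3-month replicate 3 (11.0 to 11.6).

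By edgeR's test of the difference, the tissue effect differed between macrophages and T cells for 22 of 36 members, against 35.4% of all genes. Between dendritic cells and T cells it differed for 21 of 36, against 28.2% of all genes. On library totals it was larger for 12 members and smaller for 13 in macrophages, and for 11 and 10 in dendritic cells. The values that follow are with TMM. For macrophages minus T cells the differences in log2 fold change were 0.42 for Hsp90b1, 1.12 for P4hb, 1.22 for Calr, -0.79 for Herpud1, -0.91 for Syvn1, -2.42 for Eif2ak3, -1.26 for Xbp1, -1.86 for Atf6, -1.96 for Ern1, 1.58 for Trib3, 1.12 for Slc3a2, 1.93 for Shmt2 and -1.81 for Asns. For dendritic cells minus T cells they were 1.03 for P4hb, 0.61 for Calr, 0.77 for Edem1, -0.68 for Syvn1, -1.44 for Eif2ak3, -2.45 for Atf6, -1.89 for Ern1, 0.84 for Atf4, 0.68 for Ddit3, 2.39 for Ppp1r15a, 3.84 for Trib3, 0.89 for Slc3a2 and 1.22 for Shmt2.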

How the results depend on the processing

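Of 5362 values of 336 member results under the alternatives, 5146 kept their side of the threshold, and their direction too where past it. Of the others, 190 dropped below it, 21 rose past it and 5 reversed. Direction was not compared where a member was past the threshold in neither the main fit nor the alternative. All 5 reversals came with library totals in place of TMM, a setting chosen after seeing the data: Dnajc3 in dendritic cells (-0.0058), and in myeloid against T cells of tumor Dnajb9 (-0.024), Dnajc3 (-0.085), Edem1 (-0.19) and Atf4 (-0.061). The calls of tumor against spleen kept under every alternative numbered 21 of 25 in macrophages, 18 of 30 in dendritic cells, 17 of 21 in regulatory T cells, 5 of 12 in conventional CD4 T cells and 24 of 25 in CD8 T cells. The cause of these changes was not tested.

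Of the 14 ER folding genes called in dendritic cells, 8 stayed called on totals, 9 without the 2 spleen libraries of conflicting age labels and 9 with these placed by their age tag. The ATF4 amino acid calls in regulatory T cells went from 3 to 5 on totals. In conventional CD4 T cells the 12 calls were 7 without spleen 3-month replicates 1 and 4, and 7 to 14 with single libraries left out (7 without tumor 3-month replicate 1). The 2 ER folding calls there were 1 each with no filter, on totals, in the replicate block and without those 2 spleen libraries, and 0 to 4 with single libraries left out, and the amino acid calls 2 to 4.

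The counts of 0 for age in spleen became, in dendritic cells, 2 with no filter, 1 by DESeq2's Wald test and 0 to 2 with single libraries left out (2 without 3-month replicate 4). In conventional CD4 T cells they became 3 with no filter, 2 by the Wald test, 1 on totals, 1 in the replicate block, 1 with all 4 groups fitted together and 0 to 4 with single libraries left out (4 without 3-month replicate 3). Leaving that library out left at 3 months only replicates 1 and 4, rich in ribosomal transcripts. Without replicate 1 or replicate 4 the count was 0. In CD8 T cells the counts of 0 became 1 each by the Wald test, in the replicate block and with all 4 groups fitted together.

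The tissue difference of the ER folding average became 0.83 in dendritic cells and 0.58 in regulatory T cells with TMM, that of the amino acid average 0.83 in dendritic cells with TMM and 0.62 in CD8 T cells with a pseudocount of 0.1. In the replicate block 4 member calls were lost, Herpud1, Pdia4 and Psat1 in dendritic cells and Hsp90b1 in conventional CD4 T cells. In the fit of all groups 8 of the 74 libraries were left out in turn, and the others were not. Leaving out the 2 tumor macrophage libraries richest in stromal transcripts, also chosen after seeing the data, left all 25 macrophage calls. Depth limits the genes with few reads.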
